A study of Homo sapiens with 2 samples.

Results

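Of 1622 SK-N-BE(2)-C cells, 189 held the nuclear RNA MALAT1 at under 240 CPM (MALAT1 counts as a share of all counts of the cell, scaled to 1e6), and these MALAT1-low cells are the subject here. They were chosen by that value alone, within each library: 140 of 666 cells with induced HRASV12 and 49 of 956 control cells. The other 526 induced and 907 control cells, at or above 240 CPM, are the cells they are set against. SK-N-BE(2)-C is an established human neuroblastoma line, and every cell of both libraries was of the derivative SK-N-BE(2)-C-pIND-HRASV12, which carries a doxycycline-inducible gene for HRASV12, a form of the GTPase HRAS locked in its active state. The induced culture received doxycycline at 100 ng/ml and the control culture was left without it, both over 13 days. 1 droplet library (10x Genomics Chromium 3' v3.1, from polyadenylated RNA) was made of each. Because each condition is 1 library, nothing could be tested against replicates. The values describe these cells, and every interval is a 95% interval of counting error only.

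MALAT1 is a long noncoding RNA that stays in the nucleus, in the speckles where splicing factors gather. NEAT1, which builds the paraspeckles, and KCNQ1OT1, an RNA that silences its imprinted neighbours, are likewise kept in the nucleus, as are transcripts whose introns have not yet been removed. Ribosomal protein mRNAs and most other mature mRNAs are in the cytoplasm, and the transcripts of the mitochondrial genome are inside the mitochondria. A low nuclear RNA level in a droplet can therefore be read beside the levels of the other compartments, although these libraries did not separate them. Which compartment a counted molecule came from was not measured.

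MALAT1-low cells made up 21.0% (18.0 to 24.3, exact Clopper-Pearson interval) of the induced library and 5.13% (3.82 to 6.72) of the control library. They held 22.7% of the induced and 6.32% of the control counts. By the rule, MALAT1 (ENSG00000251562.8) was low in them: the median per cell was 76.3 CPM in low and 3415 CPM in other induced cells, and 145 CPM in low and 3315 CPM in other control cells. 15 low induced cells and 2 low control cells had no MALAT1 count. The 3 cells just inside the limit had 232.9, 235.5 and 236.3 CPM in the induced library, and the 3 just outside it had 245.3, 246.5 and 248.4 CPM. In the control library the 3 just inside had 231.5, 236.8 and 238.6 CPM and the 3 just outside had 246.0, 246.2 and 256.4 CPM. The limit cut through a continuous range, so the low cells are a range of MALAT1 and not a cell type: 22 induced and 17 control cells lay between 180 and 240 CPM, and 16 induced and 11 control cells between 240 and 300 CPM. In a cell of median depth 240 CPM is 26.8 counts in the induced and 20.6 counts in the control library. The exact Poisson interval of the MALAT1 count reached over the limit in 36 of 140 low induced and 24 of 49 low control cells, and under it in 22 other induced and 20 other control cells.

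The low cells had more counts at the median but also a shallow tail in the induced library. Their median total was 135706 counts per cell in the induced library, against 106784 in other induced cells, and 118126 in the control library, against 83193 in other control cells. The 5th percentile was 21655 counts in low and 33166 counts in other induced cells, and 42529 counts in low and 38194 counts in other control cells. At an equal depth of 53000 counts per cell they nonetheless held fewer genes, with a median of 7066 in 115 low and 7948 in 447 other induced cells, and 7112 in 45 low and 8066 in 721 other control cells. Thinning left out 25 low and 79 other induced cells, and 4 low and 186 other control cells, for having fewer counts than that. Before thinning the medians were 9491 and 10155.5 genes in low and other induced cells, and 9557 and 9714 genes in low and other control cells. The libraries shared 0 cell barcodes, and the authors marked all 1622 cells as singlets.

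Mitochondrial counts took a smaller share of the low cells. The authors' mitochondrial percent had a median of 8.08 in low and 11.5 in other induced cells, and 9.99 in low and 13.3 in other control cells. Under 5% were 41 of 140 low induced cells (29.3%, interval 21.9 to 37.6), against 53 of 526 other induced cells (10.1%, 7.64 to 13.0). Among control cells under 5% were 2 of 49 low cells (4.08%, 0.498 to 14.0), against 4 of 907 other cells (0.441%, 0.120 to 1.13). The other 99 low cells of the induced library had a median of 10.5%. Induced cells just above the limit were like the low cells in this: those with 240 to 480 CPM of MALAT1 had a median of 8.94%. Those with 480 to 960 CPM had 8.61%. Control cells in the same ranges had 11.8% and 12.2%.

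**Figure D1:**
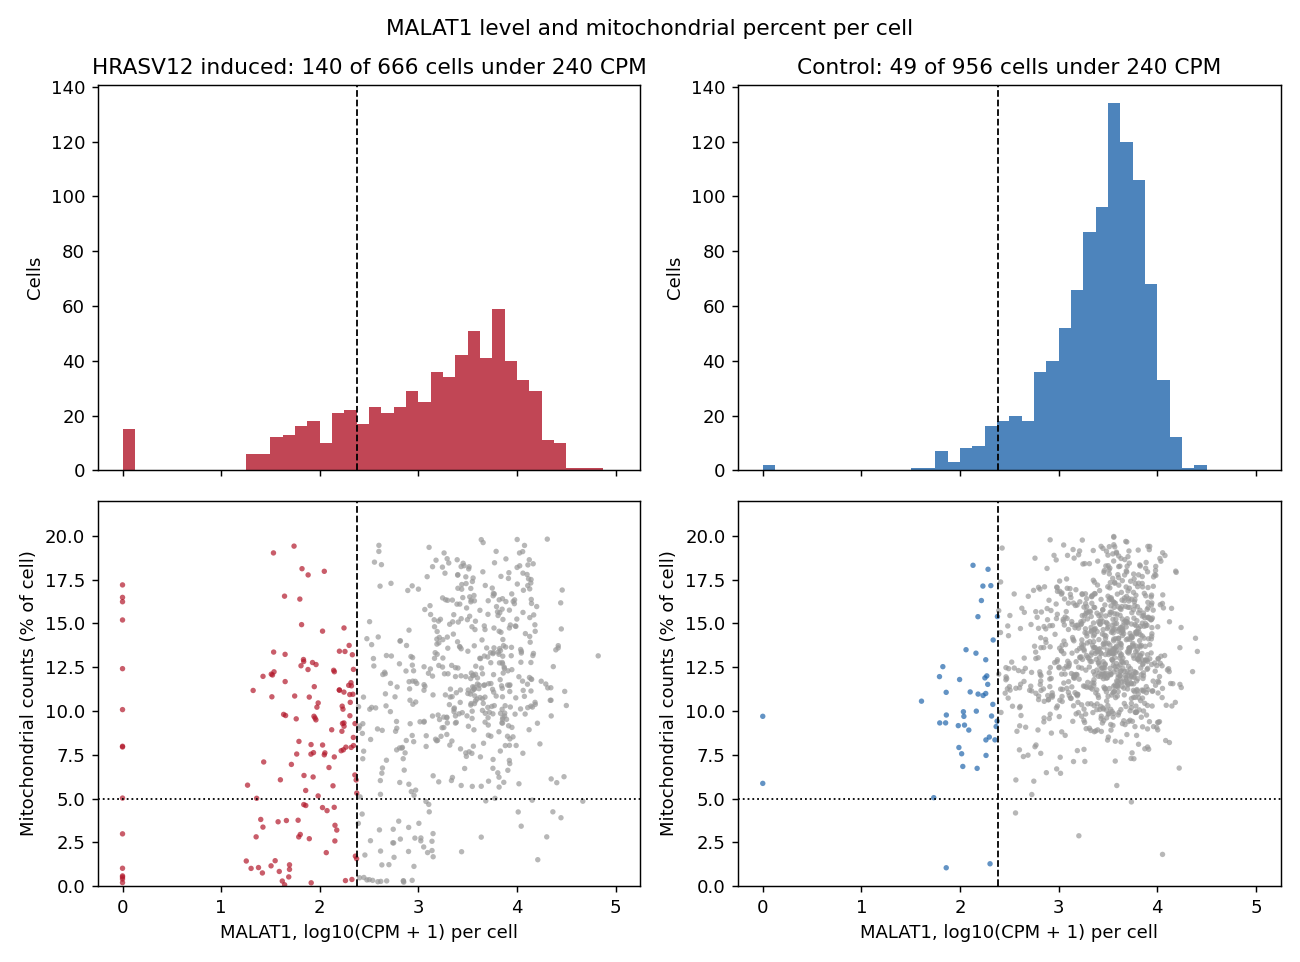
Top: number of cells by MALAT1 level, as log10(CPM + 1), in the induced (left) and control (right) library; the dashed line is 240 CPM. Bottom: percent of each cell's counts from mitochondrial genes against the same MALAT1 level, low cells coloured and other cells grey; the dotted line is 5%. The low cells form the lower tail of a continuous range, 140 of 666 induced and 49 of 956 control cells, and 41 low induced cells lie under 5%.

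The first comparison asked which RNAs went with the low level of MALAT1 within a library. Counts were summed over low and over other cells and scaled to CPM, and genes with at least 10 CPM on either side were called measured. In the induced library 40 of 8800 measured genes other than MALAT1 were at least 2-fold higher in low cells (0.455%) and 392 at least 2-fold lower (4.45%). In the control library 5 of 8721 passed 2-fold upward (0.0573%) and 359 downward (4.12%). At 1.5-fold the shares were 3.44% higher and 17.4% lower in the induced library, and 0.975% higher and 17.5% lower in the control library. These shares are the background for the gene lists below. The median log2 ratio of low over other cells was -0.17 over all measured induced genes and -0.18 over all measured control genes. It depends on the scaling: with edgeR's TMM factors the medians were 0.20 among induced and 0.15 among control cells, and with DESeq2 size factors 0.25 and 0.18 in the same libraries. The split of the 2-fold calls moved with it, to 206 higher and 136 lower by TMM and 283 higher and 121 lower by DESeq2 in the induced library, and to 34 higher and 157 lower by TMM and 42 higher and 143 lower by DESeq2 in the control library. These factors shift all genes of a library nearly alike, so a list is read below by its place relative to the median of all genes.

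Nuclear long noncoding RNAs were the group farthest below that median. Of 12 such RNAs 9 were measured in each library, and 7 were at least 1.5-fold lower in low induced cells and 8 in low control cells, with 0 higher by that size. Their median log2 ratio was -1.37 among induced and -1.16 among control cells, and both remained negative with every alternative scaling and cell filter run (at most -0.96 among induced and -0.81 among control cells). Summed over the 12 RNAs they stood at 254 CPM in low and 967 CPM in other induced cells, and at 299 CPM in low and 1073 CPM in other control cells. At equal depth all 115 low induced cells and all 45 low control cells had fewer counts of these RNAs than the median of the other cells of their library. MALAT1 itself is not in this list.

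KCNQ1OT1 was the lowest named gene of both libraries. It stood at 15.4 CPM in low and 162 CPM in other induced cells, a ratio of 0.0953 (exact conditional interval 0.0843 to 0.107), and at 20.6 CPM in low and 265 CPM in other control cells, a ratio of 0.0777 (0.0646 to 0.0927). At equal depth 44.3% of low and 93.3% of other induced cells had at least 1 of its counts, and 53.3% of low and 98.9% of other control cells. The culture holds no cell type that should lack this RNA, so the share that free RNA in the droplets gives was not measured. NEAT1 stood at 63.5 CPM in low and 433 CPM in other induced cells (log2 -2.75), and at 117 CPM in low and 435 CPM in other control cells (log2 -1.89). The 5th to 95th percentile of NEAT1 per cell ran from 0 to 231 CPM in low and from 38.0 to 1591 CPM in other induced cells, so the ranges overlapped. FTX, a noncoding RNA of the X inactivation region, stood at 14.3 CPM in low and 86.2 CPM in other induced cells (log2 -2.51), and at 15.6 CPM in low and 94.2 CPM in other control cells (log2 -2.52).

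The remaining members were closer to the other cells. MIAT, a noncoding RNA of neural tissue, had a log2 ratio of -1.95 among induced and -1.63 among control cells, and LINC-PINT, which is induced by p53, -1.37 and -1.11. SNHG14, the long transcript of the imprinted Prader-Willi region, stood at 63.4 CPM in low and 121 CPM in other induced cells and at 53.6 CPM in low and 112 CPM in other control cells. DLEU2, host of a pair of microRNAs, stood at 12.2 CPM in low and 24.3 CPM in other induced cells. PVT1, the noncoding neighbour of MYC, was at 34.0 against 50.9 CPM in the induced library (log2 -0.57) and at 18.8 against 43.1 CPM in the control library (log2 -1.16). TUG1, which is found in nucleus and cytoplasm, came nearest to level, at 37.1 CPM in low and 46.7 CPM in other induced cells (log2 -0.33) and 40.5 CPM in low and 49.9 CPM in other control cells (log2 -0.30). MEG3, MIR17HG and MIR100HG were under 10 CPM on both sides of both libraries and were not measured. KCNQ1OT1 and NEAT1 were thus the lowest of the list in the induced library and TUG1 the highest in both.

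The level of these RNAs followed MALAT1 without a step at 240 CPM. In 8 bins of MALAT1 from under 30 CPM upward, each limit being double the one before it, induced NEAT1 stood at 12.9, 24.7, 60.9, 101, 115, 182, 290 and 609 CPM. KCNQ1OT1 stood at 10.6, 8.97, 14.6, 20.8, 21.3, 44.9, 87.6 and 243 CPM in the same induced bins. The bin just above the limit, with 52 induced cells, was thus close to the bin just below it, with 46. In the control library NEAT1 stood at 81.0, 149, 198, 284, 357 and 505 CPM in the 6 bins from 60 CPM up, and KCNQ1OT1 at 17.0, 24.4, 53.1, 84.3, 152 and 348 CPM. The lowest control bins held 2 cells each. Genes per induced cell at equal depth also climbed along the bins, with medians of 6685, 6927, 7118, 7176.5, 7188, 7425, 7633.5 and 8227. The 27 induced cells of the lowest bin differed from the rest of the low cells in depth, with a median of 40355 counts against 133115 to 146637 in the other 3 low bins, so that only 9 of them entered the thinned values.

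**Figure D2:**
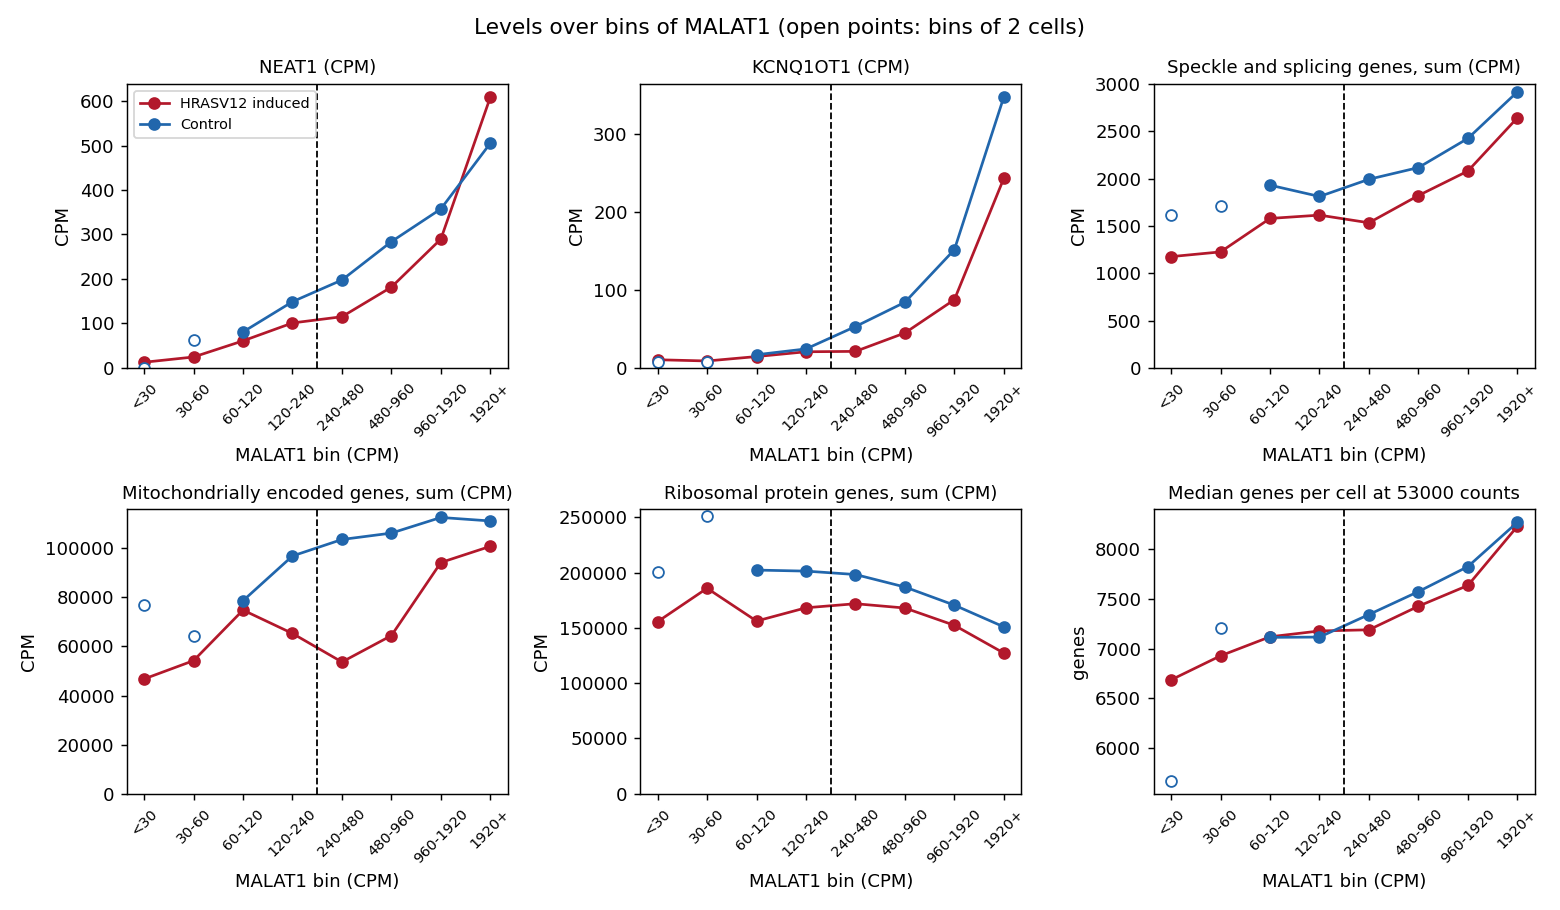
Summed CPM of 2 RNAs and 3 gene lists, and the median number of genes per cell at 53000 counts, over bins of MALAT1 for the induced and control library; open points are control bins of 2 cells and the dashed line is 240 CPM. NEAT1 and KCNQ1OT1 climb with MALAT1 on both sides of the line, with KCNQ1OT1 at 21.3 CPM in the induced bin above it and 20.8 CPM in the bin below; the axis of genes per cell does not start at 0.

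Genes of splicing and the nuclear speckle whose mRNAs are known to keep introns in the nucleus came next. Of 19 measured in each library, 12 were at least 1.5-fold lower in low induced cells and 10 in low control cells, with 0 higher by that size. The median log2 ratio was -0.81 among induced and -0.62 among control cells, and with TMM or DESeq2 factors it lay between -0.46 and -0.26 over both libraries. CCNL1, a cyclin of the splicing machinery, stood at 13.9 CPM in low and 37.0 CPM in other induced cells and at 23.1 CPM in low and 51.2 CPM in other control cells. NKTR, a cyclophilin with splicing-factor repeats, stood at 19.6 CPM in low and 48.5 CPM in other induced cells and at 22.2 CPM in low and 55.0 CPM in other control cells. SRRM2, a scaffold of the speckle, and SRSF5, a splicing factor, were the highest of the list in the induced library, with log2 ratios of -0.12 and -0.25. At equal depth 107 of 115 low induced cells (93.0%, interval 86.8 to 96.9) and 45 of 45 low control cells had fewer counts of the list than the median of the other cells.

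The lists did not fix the other genes at the bottom. Among genes with at least 25 CPM on either side, the 10 lowest induced log2 ratios included those of KCNQ1OT1, POLR2J3 (ENSG00000285437.1, -2.79), NEAT1, HELLPAR (-2.56), FTX, GUSBP3 (-2.33), SMG1 (-1.88), GABPB1-AS1 (-1.79) and PCSK7 (-1.74). HELLPAR is a long noncoding RNA, SMG1 the kinase of nonsense-mediated decay and PCSK7 a proprotein convertase. In the control library the 10 lowest also held LRRK1, a kinase, at 1.49 CPM in low and 28.0 CPM in other cells (log2 -3.54), LINC00342 (-2.45), XRCC2 (-2.26), ZNF26 (-1.98) and PRH1 (-1.94). LRRK1 was at 2.47 CPM in low and 23.9 CPM in other induced cells (log2 -2.84). POLR2J3, GUSBP3 and SMG1 have near-identical copies and GABPB1-AS1 overlaps another gene, so reads could have been split between them and their levels are uncertain.

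The genes that were low in the low cells were in good part the same in both libraries, which share no cell. Of 8277 genes measured in both, 374 were at least 2-fold lower in low induced cells (4.52%), 292 in low control cells (3.53%) and 202 in both, which is 54.0% of the induced and 69.2% of the control set. At 2-fold higher the counts were 6 in the induced library, 3 in the control library and 1 in both. Across these 8277 genes the log2 ratios of the libraries had a Pearson correlation of 0.85 and a Spearman correlation of 0.82. Genes are not independent replicates, and both libraries share the gene lengths, the chemistry and the annotation.

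By the gene types of GENCODE 29, grouped so after the data were seen, long noncoding genes held most of the extremes for their number. At least 2-fold lower in low cells were 19.3% of 357 measured long noncoding genes in the induced and 26.3% of 338 in the control library, against 3.59% of 8330 and 2.93% of 8267 protein coding genes in the same libraries. The medians of the long noncoding genes were -0.01 among induced and -0.27 among control cells, against -0.17 and -0.18 for protein coding genes, so the type as a whole was not lower in the induced library. Among protein coding genes the ratio went with length. Those whose longest annotated transcript is under 1000 bases had a median log2 ratio of 0.31 among induced and 0.34 among control cells. Over the classes from 1000, 2000, 4000 and 8000 bases the medians were 0.14, -0.09, -0.30 and -0.50 in the induced library and 0.13, -0.11, -0.32 and -0.50 in the control library. Splitting by the span of the gene with its introns gave the same order, from 0.15 under 10000 bases to -0.37 from 100000 bases in the induced library and from 0.13 to -0.39 in the control library. Transcript length and gene span go together across genes, and which of them the ratio follows was not tested. Factors such as TMM shift all classes alike and leave their order.

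**Figure D3:**
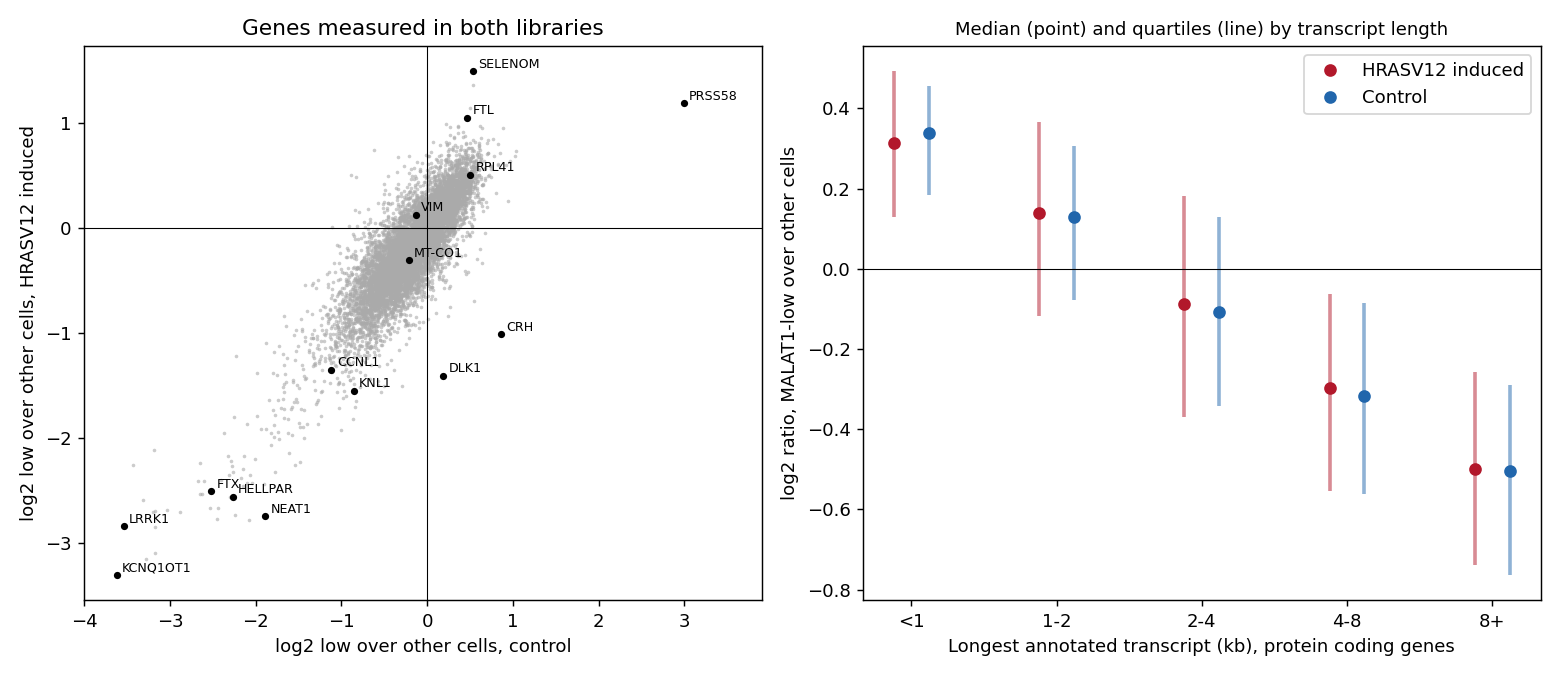
Left: log2 ratio of low over other cells for 8277 genes, induced library on the vertical and control library on the horizontal axis; named points are labelled. Right: median (point) and quartiles (line) of the same ratio for protein coding genes by the length of their longest annotated transcript, induced library left of control in each class. KCNQ1OT1 lies at the bottom in both libraries (-3.31 and -3.62), and the medians descend from 0.31 to -0.50 in the induced and from 0.34 to -0.50 in the control library with length.

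RNAs of the cytoplasm that are abundant and short stood at the other end. Of 40 nuclear-encoded genes of the respiratory chain, 1 was at least 1.5-fold higher in low induced cells and 0 were lower, with medians of 0.30 among induced and 0.39 among control cells. UQCRQ, a subunit of complex III, was that gene, at 1146 CPM in low and 757 CPM in other induced cells (ratio 1.51, interval 1.49 to 1.54) and at 1039 CPM in low and 716 CPM in other control cells. ATP5ME, a subunit of the ATP synthase, stood at 492 CPM in low and 328 CPM in other induced cells and at 504 CPM in low and 346 CPM in other control cells. ATP5F1A and ATP5F1C, also of the ATP synthase, were the lowest, with induced log2 ratios of -0.35 and -0.20. The 82 measured ribosomal protein genes had medians of 0.17 among induced and 0.30 among control cells, with 0 past 1.5-fold either way in either. RPL41 stood at 6903 CPM in low and 4850 CPM in other induced cells, and RPL13A at 206 CPM in low and 249.9 CPM in other induced cells. Ribosomal protein genes have many near-identical copies in the genome, which makes single members uncertain. Host genes of small nucleolar RNAs, whose spliced RNAs reach the cytoplasm although they are noncoding, had medians of 0.13 and 0.12 in the induced and control library, with 0 of 12 past 1.5-fold. The medians of these 3 lists were positive with every alternative run, in both libraries. Induced cells with 240 to 480 CPM of MALAT1, just above the limit, were like the low cells here. The respiratory chain list summed to 34511.5 CPM in them, 32711.5 CPM in low and 26198 CPM in all other induced cells. Ribosomal protein genes summed to 171960, 166604 and 143075 CPM in the same order.

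Transcripts of the mitochondrial genome went the other way from the nuclear genes of the same complexes. All 13 mitochondrially encoded mRNAs had ratios below level in low cells of both libraries, with medians of -0.56 among induced and -0.52 among control cells. By at least 1.5-fold 6 were lower among induced (background 17.4%) and 3 among control cells (background 17.5%). MT-ATP8, a subunit of the ATP synthase, was lowest, at 48.9 CPM in low and 92.7 CPM in other induced cells (log2 -0.91) and at 83.0 CPM in low and 186 CPM in other control cells (log2 -1.15). MT-ATP6 and MT-ND5 were at -0.78 each in the induced library and at -0.62 and -0.79 in the control library. MT-CO2 was nearest to level, at 20667 CPM in low and 24266 CPM in other induced cells (log2 -0.23) and 29652 CPM in low and 30385 CPM in other control cells (log2 -0.04). Its control ratio lay above the median of all measured control genes, -0.18. The 13 mRNAs summed to 63785 CPM in low and 87687 CPM in other induced cells. Induced cells with 240 to 480 CPM of MALAT1 had a sum of 53655.5 CPM, which is below that of the low cells. Cells with more counts weigh more in such sums. Per cell the authors' mitochondrial percent had the reverse order. Its median was 8.94 in induced cells with 240 to 480 CPM of MALAT1 and 8.08 in low induced cells. In the control library the sums were 88206 CPM in low, 110345 CPM in other and 103553 CPM in such cells. The list median was at most -0.15 among induced and -0.16 among control cells over the alternatives run. With low and other cells both limited to at least 5% mitochondrial counts, it was -0.31 among induced and -0.44 among control cells.

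That limit changed the nuclear group little. Among cells with at least 5% mitochondrial counts the nuclear noncoding RNAs had medians of -1.42 among induced and -1.16 among control cells, the splicing genes -0.75 and -0.59, and the nuclear respiratory chain genes 0.30 and 0.36. The 41 low induced cells under 5% had KCNQ1OT1 at 9.76 CPM and the 99 low induced cells at or above it had 18.3 CPM. Other induced cells under 5% had KCNQ1OT1 at 35.1 CPM and those at or above it had 185 CPM. Their summed MALAT1 was 2074 and 4723 CPM in the same order, so a low mitochondrial percent went with less of the nuclear RNAs among the other cells too.

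**Figure D4:**
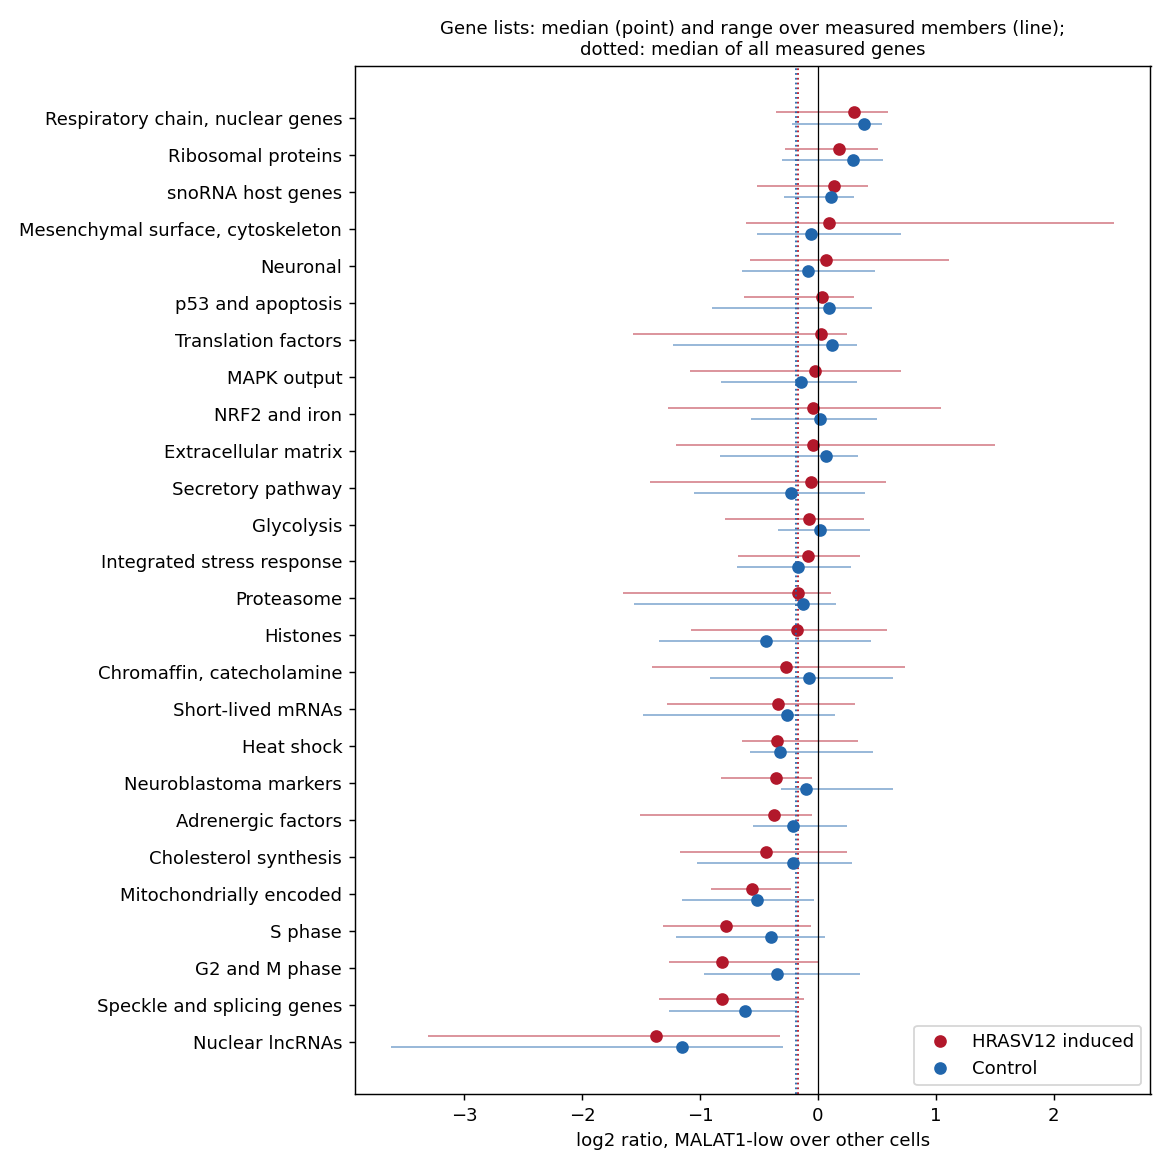
Median log2 ratio of low over other cells (points) and range over the measured members (lines) for gene lists with at least 6 measured members, induced above control in each row; dotted lines mark the medians of all measured genes, -0.17 and -0.18. Nuclear noncoding RNAs are lowest in both libraries (-1.37 and -1.16) and nuclear genes of the respiratory chain highest (0.30 and 0.39).

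Genes of the cell cycle were below the general level in low cells, more so in the induced library, a difference that was not tested. In low induced cells 25 of 36 genes of S phase passed 1.5-fold lower (median -0.78), against a background of 17.4% over all measured genes. In low control cells 7 of 38 did (median -0.40), a share near the background of 17.5%. For genes of the G2 and M phases this held for 35 of 51 in low induced cells (median -0.81) and for 15 of 52 in low control cells (median -0.34, and 0.01 with DESeq2 size factors). None of either list was higher by that size. HELLS, a chromatin remodeller of S phase, stood at 25.6 CPM in low and 65.2 CPM in other induced cells and at 98.3 CPM in low and 146 CPM in other control cells. LBR, the lamin B receptor, stood at 34.1 CPM in low and 83.2 CPM in other induced cells, and HMMR, which acts at the spindle, at 12.3 and 29.8 CPM in the same cells. Some members were near level, such as CKS2, a cofactor of cyclin-dependent kinases, at 311 CPM in low and 313 CPM in other induced cells, and CDCA3 at 31.3 and 31.4 CPM. Among cells with at least 5% mitochondrial counts the G2 and M phase medians were -0.68 among induced and -0.30 among control cells. Control sums of the G2 and M list were 6449 and 5362 CPM in the MALAT1 bins from 60 and 120 CPM. Above the limit the control bins had 5080, 5629, 5948 and 7577 CPM. The sums of both these low bins were thus not below that of the control bin from 240 CPM, and the highest bin held 635 cells. Cells were not compared 1 by 1 between bins. At equal depth 32 of 45 low control cells (71.1%, interval 55.7 to 83.6) had fewer counts of the list than the median of all other control cells.

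Lists of short-lived, stress and identity genes moved less, and several changed sign with the scaling. Of 20 short-lived mRNAs measured in the induced library 6 were at least 1.5-fold lower in low cells and 0 higher (median -0.34, and 0.09 with DESeq2 size factors). BTG2, an antiproliferative gene, stood at 4.22 CPM in low and 11.7 CPM in other induced cells and EGR1, an immediate-early factor, at 39.6 and 84.9 CPM, while JUND stood at 534 and 456 CPM in the same cells. Of 21 adrenergic transcription factors 5 were at least 1.5-fold lower in low induced cells and 0 of 21 in low control cells (medians -0.38 and -0.21, and 0.05 and 0.14 with DESeq2 size factors). PHOX2A, a master factor of sympathetic neurons, stood at 877 CPM in low and 906 CPM in other induced cells and at 794 CPM in low and 695 CPM in other control cells. It was the highest member of that list in low induced cells. Of 7 neuroblastoma markers 6 were measured, and in low induced cells all 6 were below the other cells, 1 of them by at least 1.5-fold (median -0.35, against -0.17 over all genes), with a sum of 1619 CPM in low and 1992 CPM in other induced cells. That 1 was CHGA, the chromogranin of secretory granules, at 279 CPM in low and 495 CPM in other induced cells (log2 -0.82). Of the same 6 in low control cells 1 was at least 1.5-fold higher and 0 lower (median -0.10), with a sum of 2241 CPM in low and 2344 CPM in other control cells. Heat shock genes had medians of -0.34 and -0.32 in the induced and control library (0.06 and 0.02 with DESeq2 size factors), and cholesterol synthesis genes -0.44 and -0.21 (-0.04 and 0.15).

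Markers of other cell types were few among the measured genes, and their part in the differences was not tested. Of 3 immune markers 1 was matched by symbol and 0 were measured, with a sum of 1.31 CPM in low and 1.47 CPM in other induced cells, and 0.664 CPM in low and 1.20 CPM in other control cells. The erythroid pair summed to 0.219 CPM in low and 0.177 CPM in other induced cells and to 0 and 0.112 CPM in low and other control cells. Of 5 endothelial markers 2 were measured in the induced library, with sums of 74.3 CPM in low and 72.1 CPM in other cells, and 1 in the control library, with 104 CPM in both. ESAM, 1 of them, had an induced log2 ratio of -0.32, and of -0.81 without the low cell that held 32.9% of its counts. Of 4 fibroblast markers only LUM was measured, at 48.7 CPM in low and 69.1 CPM in other induced cells (log2 -0.50, and -0.81 without the low cell that held 20.1% of its counts). The fibroblast sums were 58.5 CPM in low and 78.6 CPM in other induced cells and 19.3 CPM in low and 22.9 CPM in other control cells. Of 3 epithelial markers 2 were measured among induced and 1 among control cells, with sums of 43.8 CPM in low and 35.0 CPM in other induced cells and 22.4 CPM in low and 17.7 CPM in other control cells.

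By CPM 40 of 8800 measured genes (0.455%) were at least 2-fold higher in the low induced cells. That number depends on the scaling and was 206 by TMM and 283 by DESeq2 size factors. ANXA1, a membrane-binding annexin, stood highest, at 59.7 CPM in low and 9.61 CPM in other induced cells (ratio 6.21, interval 5.62 to 6.88). Its median was 0 on both sides, and at equal depth 17.4% of low and 8.50% of other induced cells had at least 1 count, so the difference rested on a minority of cells. Control cells had 0 ANXA1 counts in low and 9 counts in other cells. By mitochondrial percent ANXA1 stood at 103 CPM in low induced cells under 5% and 37.4 CPM in those at or above it, and at 35.2 CPM and 4.82 CPM in other induced cells under 5% and at or above it. Along the low bins of MALAT1 it had no steady order. It stood at 166 CPM in the 27 induced cells under 30 CPM and at 10.7, 72.9 and 41.1 CPM in the next low bins. Above the limit the bins had 36.7, 13.4, 8.67 and 2.12 CPM.

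The other genes at the top of the induced library were of mixed function. SELENOM, a selenoprotein of the endoplasmic reticulum, stood at 230 CPM in low and 81.0 CPM in other induced cells (ratio 2.84, interval 2.73 to 2.96), and at 63.9 CPM in low and 43.9 CPM in other control cells (log2 0.53). KDELR3, which returns proteins to the endoplasmic reticulum, stood at 63.5 CPM in low and 22.7 CPM in other induced cells (log2 1.45) and was level in the control library, at 4.65 and 4.62 CPM. Of the 25 secretory pathway genes as a list 0 passed 1.5-fold upward and 3 downward in low induced cells (median -0.06). ANKRD1, a target of YAP, stood at 56.0 CPM in low and 19.9 CPM in other induced cells (log2 1.45), and had 0 counts in low and 15 in other control cells. SELENOM, KDELR3 and ANKRD1 were also high in other induced cells under 5% mitochondrial counts, at 223, 61.1 and 74.8 CPM. Other induced cells at or above 5% had 54.3, 15.5 and 9.60 CPM in the same order. Low induced cells had 301, 85.0 and 112 CPM under 5%, and 193, 52.3 and 26.9 CPM at or above it. ACP5, an acid phosphatase (log2 1.37), FXYD5, a regulator of the sodium pump (1.30), TUBA4A, an alpha tubulin (1.25), PTX3, a pentraxin (1.21), PRSS58 (1.19) and MUC12, a mucin (1.17), made up the 10 highest. Single cells set some of these values: 1 low cell held 58.9% of the PTX3 counts, and without it the log2 ratio was 0.02, while FXYD5 was 0.91 and PRSS58 0.82 without the low cell richest in each.

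The control library had fewer such genes. PRSS58 led, at 55.1 CPM in low and 6.07 CPM in other control cells (log2 2.99), but 1 low cell held 54.8% of its counts and the log2 ratio was 1.90 without that cell. SMIM29, a small membrane protein, stood at 39.0 CPM in low and 18.5 CPM in other control cells (log2 1.04) and at 87.0 CPM in low and 52.0 CPM in other induced cells (log2 0.73). NDUFA4L2 (1.02) had 86.2% of its low control counts in 1 cell, and its log2 ratio was -1.60 without that cell. CRH, corticotropin-releasing hormone, stood at 345 CPM in low and 190 CPM in other control cells (log2 0.86, and -0.06 without the low cell that held 47.9% of its counts) and at 200 CPM in low and 405 CPM in other induced cells (log2 -1.02). PSMB10, a subunit of the immunoproteasome (0.88), ENHO (0.85), HCFC1R1 (0.83), RAB3A, a GTPase of synaptic vesicles (0.83), CISD3 (0.78) and INAFM1 (0.77) followed, each below 2-fold, with induced log2 ratios between 0.60 and 0.96.

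Mesenchymal genes of the surface and cytoskeleton were mixed in low induced cells: 5 of 26 passed 1.5-fold upward and 1 downward (median 0.09, against -0.17 over all genes). In low control cells 2 of 19 were higher and 0 lower (median -0.06). S100A10, a partner of annexin A2 and named after its values were seen like VIM, TMSB10, FN1, FTL, FTH1, CCN2 and LRRK1, stood at 2983 CPM in low and 1812 CPM in other induced cells and at 450 CPM in low and 275 CPM in other control cells. TMSB10, an actin-binding thymosin, stood at 5011 CPM in low and 3054 CPM in other induced cells and at 1574 CPM in low and 964 CPM in other control cells. Other induced cells under 5% mitochondrial counts had S100A10 at 2702 CPM and TMSB10 at 4636 CPM. Those at or above 5% had 1645 and 2757 CPM. Low induced cells had 3418 and 6161 CPM under 5%, and 2757 and 4412 CPM at or above it. VIM, vimentin, was close to level, at 1616 CPM in low and 1479 CPM in other induced cells and at 167 CPM in low and 183 CPM in other control cells. LMNA, lamin A, was among the lowest, at 337 CPM in low and 471 CPM in other induced cells. Of 14 matrix genes in the induced library 2 passed 1.5-fold upward and 3 downward. CCN2, a YAP target, stood at 21.2 CPM in low and 6.81 CPM in other induced cells (log2 1.51, and 0.93 without the low cell that held 35.4% of its counts), and TIMP1, an inhibitor of metalloproteinases, at 511 and 292 CPM.

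Ferritin stood out among the NRF2 and iron genes. FTL, the ferritin light chain, was at 6433 CPM in low and 3109 CPM in other induced cells (log2 1.05) and at 3193 CPM in low and 2315 CPM in other control cells (log2 0.46). By mitochondrial percent FTL was at 8609 CPM under 5% and 5301 CPM at or above it in low induced cells. Other induced cells had 5614 and 2639 CPM in the same order. FTH1, the heavy chain, was at 1368 CPM in low and 807 CPM in other induced cells and at 640 CPM in low and 450 CPM in other control cells. Both have many processed copies in the genome, which makes their counts uncertain. HMOX1, the heme oxygenase, was at 19.8 CPM in low and 49.4 CPM in other induced cells (log2 -1.28), which turned round to 0.37 among cells with at least 5% mitochondrial counts. DLK1, a Notch ligand of chromaffin cells, differed between the libraries: it was at 201 CPM in low and 535 CPM in other induced cells (log2 -1.41) and at 1542 CPM in low and 1358 CPM in other control cells (log2 0.18). That difference was not tested.

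HRAS itself was not lower in the low cells. It stood at 171 CPM in low and 157 CPM in other induced cells (ratio 1.09, interval 1.05 to 1.13), and at 144 CPM in low and 107 CPM in other control cells. The log2 ratio of the induced over the control library was 0.25 among low cells and 0.55 among the other cells. Whether counts of the HRASV12 transgene and of the cell's own HRAS are told apart was not stated in the labels. Of the MAPK output genes 2 of 16 passed 1.5-fold upward and 1 downward in low induced cells (median -0.02). FOSL1, an AP-1 factor, was at 21.4 CPM in low and 12.8 CPM in other induced cells, and PLAUR, the urokinase receptor, at 26.9 and 17.0 CPM, while CCND1, cyclin D1, was at 603 and 868 CPM.

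The second comparison asked which differences between the induced and the control library depended on the low cells. The comparisons over all cells, without the low cells and over the low cells alone share cells, so their values are set side by side without a test. Over all cells 362 of 9016 measured genes were at least 2-fold higher in the induced library (4.02%) and 114 at least 2-fold lower (1.26%). Without the low cells 326 of 9059 were higher (3.6%) and 61 lower (0.673%). Over the low cells alone 558 of 8379 were higher (6.66%) and 301 lower (3.59%), from 49 control cells. Of the 362 higher genes 327 were still at least 2-fold higher without the low cells and 35 were not, and of the 114 lower genes 60 were and 54 were not. These counts follow each gene whatever its level without the low cells, so they include genes under 10 CPM there, which the 326 and 61 leave out. Limited to a level of 25 CPM or more in 1 of the libraries, 198 of 222 higher genes and 35 of 73 lower genes remained past 2-fold.

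Among the higher genes the change was small for most. The median change of the 362 log2 ratios was -0.07, and 26 dropped by more than 0.25. ANXA1 dropped most, with log2 4.33 over all cells and 3.27 without the low cells, and the low cells held 64.6% of its induced counts, more than of any other measured gene. Over all cells its control level rested on 9 counts, and among low cells, with 0 control counts, it was at least 120-fold higher in the induced library (against a floor of 3 counts over the low control cells). ANKRD1 was at 4.65 over all cells and 4.16 without the low cells, and at least 112-fold higher among low cells against the same floor. These folds of ANXA1 and ANKRD1 use no pseudocount, unlike the log2 ratios beside them. The 2 scales cannot be compared, so they do not tell whether the rise was larger among low cells. KDELR3 was at 2.55 over all cells and 2.07 without the low cells, SELENOM at 1.33 and 0.87, ACP5 at 2.39 and 1.94, and SNCG, a synuclein, at 3.19 and 2.90. MGP, a matrix protein (2.30 and 2.01), had 52.3% of its low induced counts in 1 cell. CREB3, S100A16, ARHGDIG, S100A13, IGSF21 and SH3BGRL3 followed, each of which dropped by 0.24 to 0.28. Of these 12 genes with at least 25 CPM, all but SELENOM and ARHGDIG (1.19 and 0.93) stayed past 2-fold.

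The 24 genes with at least 25 CPM that no longer passed 2-fold had log2 ratios between 0.81 and 0.97 without the low cells. FTH1 (1.01 over all cells and 0.84 without low cells), SELENOW, a selenoprotein (1.02 and 0.84), CST3, cystatin C (1.09 and 0.89), MAP1LC3B, of autophagosomes (1.03 and 0.88), BLVRB, biliverdin reductase (1.00 and 0.81), and HLA-C, of antigen presentation (1.04 and 0.95), were among them and were named after their values were seen. Other genes moved up without the low cells, each by at most 0.23. HMOX1 was at 2.88 over all cells and 3.11 without the low cells, LRRC17 at 4.09 and 4.30, PRSS12 at 2.52 and 2.69, PRSS58 at 1.42 and 1.58, and CREB5 at 1.07 and 1.19. VIM (3.04 and 3.00), S100A10 (2.86 and 2.71), FN1, fibronectin (2.41 and 2.24) and TMSB10 (1.80 and 1.66) stayed past 2-fold without the low cells. Apart from VIM they dropped about as much as several genes that fell under it, such as FTH1. Those genes lay nearer to 2-fold over all cells.

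**Figure D5:**
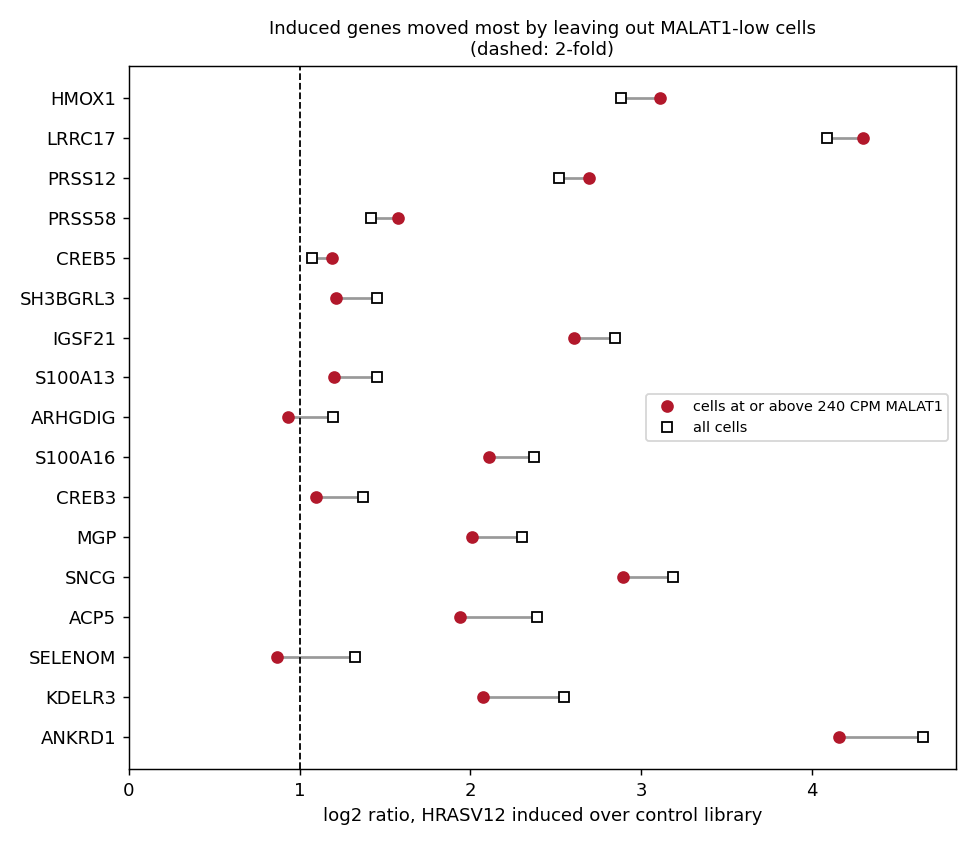
Log2 ratio of the induced over the control library without MALAT1-low cells (filled points) and over all cells (open squares) for the 12 genes that dropped most and the 5 that moved up most among genes with at least 25 CPM; the dashed line is 2-fold. SELENOM (1.33 over all cells, 0.87 without low cells) and ARHGDIG (1.19 and 0.93) fall under the line, and LRRC17 (4.30) and ANKRD1 (4.16) are highest without low cells.

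Of the lower genes, the 38 with at least 25 CPM that no longer passed 2-fold lay just short of it without the low cells, with log2 ratios of up to -0.82. The median change over all 114 lower genes was 0.13. Those named here were chosen after their values were seen: MKI67, the Ki-67 antigen (-1.09 over all cells and -0.93 without low cells), MCM4 of the replicative helicase (-1.08 and -0.93), NASP, a histone chaperone (-1.03 and -0.87), KNL1 of the kinetochore (-1.11 and -0.92), BRCA1 (-1.11 and -0.98) and UHRF1 (-1.07 and -0.92). LIN28B, an RNA-binding oncofetal protein (-1.12 and -0.92), and MT-ATP8 were also among them. As whole lists the cell cycle genes stayed lower in the induced library without the low cells: by 1.5-fold or more for 28 of 38 genes of S phase and 37 of 52 of the G2 and M phases (background 5.3%), with medians of -0.75 and -0.68. Over all cells this held for 32 of 38 and 43 of 52 (background 7.73%), with medians of -0.87 and -0.80. Mesenchymal surface and cytoskeletal genes had a median of 1.17 without the low cells and 1.30 over all cells, and 1.5-fold or more higher were 20 of 24 without the low cells (background 9.04%) and 21 of 26 over all cells (background 10.3%). The nuclear noncoding RNAs had a median of -0.01 without the low cells and -0.14 over all cells, and the mitochondrially encoded genes -0.35 and -0.45.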

How the data were processed

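SK-N-BE(2)-C-pIND-HRASV12 cells were measured in 1 induced and 1 control library. The authors' deposited table holds raw counts per gene and cell (36027 genes, 1622 cells), made with kallisto and bustools per the submitters' processing notes; no version, genome build, annotation or cell filter is stated there or in the labels. The authors' deposited cell annotation gives the mitochondrial percent, the library and a singlet mark for every cell. Its totals differed from the column sums by at most 192 counts. Median depth was 111582 counts per induced and 85821 per control cell.

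The limit of 240 CPM, the gene lists and the comparisons were chosen with earlier results of these data known, and every gene was measured in the cells the rule divided. Counts were summed over cells and scaled to CPM, so cells with more counts weigh more. The deepest induced cells held 490923 counts among low and 599978 among other cells. Log2 ratios used a pseudocount of 1 CPM, for genes with at least 10 CPM on either side. They understate the change of low genes. Lists are given by members past 1.5-fold and by the median. The genes named were the 10 highest and 10 lowest with at least 25 CPM on either side, the extremes of each list and those whose induced ratio changed most without the low cells; others are said to be named after their values were seen. Intervals are exact Poisson, conditional binomial or Clopper-Pearson at 95% and cover counting error only. Shares of cells with a count used cells thinned to 53000 counts. 376 symbols occur more than once and were kept apart by gene ID. GENCODE 29 gave gene type and length to 99.8% of measured genes, matched by ID without version; its classes were chosen after seeing the data. No doublet caller was run. Reads of near-identical copies and of overlapping or antisense genes could not be told apart. The summing was tested on simulated data. Python 3.11.15, numpy 2.4.6, scipy 1.17.1, pandas 2.3.3, matplotlib 3.10.9, R 4.3.3, edgeR 4.0.16 and DESeq2 1.42.0 were used, the last 2 for scaling factors only. Alternatives varied the MALAT1 limit, scaling, pseudocount, filter, depth and mitochondrial percent. Some genes that this rule picked are not reported here.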

Additional observations from a re-analysis of the deposited data

Results flagged for a closer look

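CRH, corticotropin-releasing hormone, had a log2 ratio of MALAT1-low over other cells of 0.86 in the control library and of -1.02 in the induced library, so its direction differed between the libraries. The difference was not tested. In the control library 1 low cell held 47.9% of its low counts, and without that cell the ratio was -0.06.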

How the results depend on the processing

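No paired analysis was possible because each condition was 1 library. The share of low cells was 17.7% of the induced and 3.03% of the control library when mitochondrial and ribosomal protein counts were left out of MALAT1's total. Against 432 genes past 2-fold between low and other induced cells, the count was 871 with the mean of per-cell CPM, 203 with a pseudocount of 5 CPM, 56 with a filter of 50 CPM and 2220 with no filter beyond 1 count. Against 364 in the control library it was 191 by TMM, 185 by DESeq2 size factors, 163 with the pseudocount of 5 CPM, 35 with the filter of 50 CPM and 2507 with none. Against 387 between the induced and control library without low cells it was 250, 139 and 683 with that pseudocount, that filter and none. Higher calls were 9.26% of the induced total, but 60.2% by TMM and 70.0% by DESeq2; of the control total 1.37%, but 17.8% and 22.7%. Between the libraries they were 84.2%, and 71.1% when the totals left out mitochondrial and ribosomal protein genes (320 higher and 130 lower). The induced ratio of HMOX1 reversed to 0.37 among cells with at least 5% mitochondrial counts. The control ratio of NDUFA4L2 reversed to -2.49 with a limit of 120 CPM, to -1.83 with the totals for MALAT1 that left out mitochondrial and ribosomal protein counts, and to -1.60 without 1 cell, an alternative chosen after seeing the data. The causes were not tested, apart from the filters, which change how many genes are counted. With limits of 120 and 480 CPM the counts were 525 and 588 in the induced library, 449 and 263 in the control library, and 415 and 355 between the libraries without low cells. With 49 low control cells, and with 27 induced cells under 30 CPM of MALAT1 at a median of 40355 counts, single cells can set the value of a scarce gene.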
